A study of Mus musculus with 36 samples.

Results

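Amino acid transporters of the solute carrier families 1, 3, 6, 7, 36, 38 and 43 were examined in RNA from 36 subcutaneous mouse tumours. Members were all genes in the count table whose symbol is Slc1a, Slc3a, Slc6a, Slc7a, Slc36a, Slc38a or Slc43a followed by a number, which gave 60 of 37417 genes. All mice were wild type and 12 weeks old per the labels. MC38 and PancO2 tumours were grown in C57BL/6J mice and CT26 tumours in BALB/c mice, where MC38 and CT26 are colon carcinoma lines and PancO2 is a pancreatic carcinoma line. Each model was given control IgG, anti-CTLA4 or anti-PD-1 (antibodies against 2 checkpoint receptors of T cells) at 10 mg/kg into the peritoneum, in 9 labelled groups of 4 tumours. Each tumour gave 1 library of raw read counts, and libraries are named by labelled group and number, as in PancO2 anti-PD-1 71.

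Amino acids cross membranes by carriers that overlap in what they move, so a cell can take up the same amino acid through different paralogues (genes of shared descent). Slc38 carriers of system A and system N bring in glutamine with sodium, Slc7a1 to Slc7a3 carry arginine and lysine, and the heavy chain Slc3a2 brings light chains such as Slc7a5 (leucine and other large amino acids) and Slc7a11 (cystine in exchange for glutamate) to the cell surface. Slc1a5 exchanges glutamine and other neutral amino acids, and Slc6 members carry taurine, creatine, betaine, GABA and glycine. When amino acids run short, the transcription factor ATF4 switches on a response that includes Asns (asparagine synthetase) and several of these carriers.

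Before any transporter was compared, expression and labels were set against each other, because they did not match. H2-Ea-ps, a class II gene that the BALB/c strain expresses and C57BL/6 does not, went against the labelled strain in 16 of 36 libraries. Libraries were therefore also described in 3 classes of 12, given by H2-Ea-ps above 10 CPM, which are read counts scaled to a common library total (the H2-Ea-expressing class), by the copper-binding protein gene Cp above 1000 CPM (Cp-high) or by neither (Cp-low). All 9 labelled groups held libraries of more than 1 class and 8 of them held all 3 classes. The H2-Ea-expressing class held 4 libraries of each labelled model, the Cp-high class 4 of MC38, 3 of CT26 and 5 of PancO2, and the Cp-low class 4, 5 and 3. Totals ran from 7883106 to 41751023 counts per library. The lowest was PancO2 anti-PD-1 71 in the H2-Ea-expressing class. In that library 86.5% of listed reads named no gene and 15.7% of counts were mitochondrial, against at most 63.4% and 4.35% in the others. Several results that rest on it are therefore given with and without it. Ranges of the H2-Ea-expressing class include it. It set the lowest level in that class for Slc3a2, Slc7a5, Slc38a1, Slc38a6, Slc38a10 and Slc43a2, among others. The classes come from expression in these same libraries, so differences between them are described with no test. In bulk tumour RNA, fewer cells of a type and less RNA per cell cannot be told apart.

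The 3 classes also differed in marker genes of cell types. The 5 epithelial markers summed to between 8.80 and 43.7 CPM in the H2-Ea-expressing class, 577 and 1186 CPM in the Cp-high class and 64.4 and 430 CPM in the Cp-low class, and Epcam had a median under 1 CPM in all 3. The 6 fibroblast markers summed to between 1869 and 3781, 3011 and 5877, and 5318 and 12565 CPM in the same order of classes. The 6 macrophage markers gave 609.9 to 1258, 874 to 1479 and 1288 to 2021 CPM. Of these 6, 1 went against that order and was lower in all Cp-high libraries than in any other library. The genes of a list did not all follow its sum, since Col3a1 led the fibroblast order (medians of 411, 670 and 4232 CPM) while Col1a2 was highest in the H2-Ea-expressing class (1400, 204 and 644 CPM) and Dcn in the Cp-high class (183, 2313 and 794 CPM), and Krt18 was lowest in the Cp-low class. Apart from 4 transporters set against macrophage markers and 2 against adipocyte markers within classes, the part of these cell types in the levels of transporters was not tested.

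Of the 60 members, 36 reached 1 CPM in at least 4 libraries, and 24 did not. Among the 24, 9 stayed under 1 CPM in every library (Slc1a6, Slc6a3, Slc6a15, Slc6a21, Slc7a10, Slc7a12, Slc36a3, Slc38a5 and Slc38a8), of which Slc7a12 had no count anywhere. For 7 others (Slc6a2, Slc6a5, Slc6a7, Slc6a11, Slc6a13, Slc7a13 and Slc38a11) the single library at or above 1 CPM was PancO2 anti-PD-1 71. Slc6a2, the noradrenaline transporter, stood at 10.3 CPM there and at no more than 0.877 CPM elsewhere. A further 7 (Slc1a1, Slc6a4, Slc6a14, Slc6a19, Slc7a9, Slc7a15 and Slc36a2) reached 1 CPM in 1 to 3 libraries.

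Counted per kilobase of exon, so that genes can be compared, a small set of carriers made up most of the transporter RNA in each class. Slc38a2, the widely used system A glutamine carrier, had a median level of 99.0 CPM per kb in the H2-Ea-expressing class, 37.4 in the Cp-high class and 68.8 in the Cp-low class. Slc3a2 stood at 72.6, 51.6 and 54.6 CPM per kb, its partner Slc7a5 at 67.8, 35.7 and 63.6, and Slc1a5 at 67.1, 35.5 and 29.01. The taurine carrier Slc6a6 led its family in all 3 classes, at 24.8, 30.3 and 24.2 CPM per kb, as did the proton-coupled carrier Slc36a1, at 7.52, 15.2 and 10.7. The family leader changed in 1 family only, Slc43, in which Slc43a2 led in the H2-Ea-expressing and Cp-high classes and Slc43a3 in the Cp-low class. At the other end, the 5 glutamate carriers of the Slc1 family together had medians of 0.691, 0.437 and 0.233 CPM per kb.

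Besides Slc38a3, a single transporter was confined to 1 class, Slc6a12, and both belonged to the Cp-high class. Confined means at least 1 CPM in every library of the class, under 1 CPM in every other library and a class median at least 10 times the highest other median. By this rule 1.16% of the 15217 genes that pass the low-level filter are confined to some class and 0.447% to the Cp-high class, against 2 of the 36 members that pass it. No member was confined to the H2-Ea-expressing class (0.624% of genes) or the Cp-low class (0.0854%).

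Slc38a3 encodes the system N carrier that moves glutamine, histidine and asparagine with sodium and against protons (chromosome 9, 107650634 to 107669530, minus strand, GRCm38). Its lowest, median and highest levels in the 12 Cp-high libraries were 27.9, 46.2 and 89.9 CPM, from 593 to 2410 counts. In the 12 H2-Ea-expressing libraries it ran from 0 to 0.0719 CPM with a median of 0, and in the 12 Cp-low libraries from 0 to 0.261 CPM with a median of 0.0592. The 24 libraries outside the Cp-high class had at most 8 counts and 10 of them had none, where 3 counts, the limit that a count of 0 allows, correspond to 0.0865 to 0.381 CPM. The groups were thus wide apart, with no library in between.

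Slc6a12 encodes the carrier of betaine and GABA (chromosome 6, 121343076 to 121365775, plus strand). It ran from 27.1 through a median of 37.0 to 54.1 CPM in the Cp-high libraries, from 546 to 1557 counts. It lay between 0 and 0.0711 CPM in the H2-Ea-expressing libraries and between 0 and 0.0679 CPM in the Cp-low libraries, which is at most 2 counts, with 12 of the 24 at 0. Within the Cp-high class its spread (SD 9.15 CPM, n = 12) was smaller than that of Slc38a3 (SD 22.9 CPM, n = 12).

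No close paralogue described here took the place of either gene in the other classes. Slc38a5, the other system N carrier, had at most 0.127 CPM in any of the 36 libraries. Of the relatives of Slc6a12, Slc6a13 reached 0.911 CPM and Slc6a11 0.228 CPM at most outside PancO2 anti-PD-1 71, in which they stood at 3.30 and 3.81 CPM. In the Cp-high libraries, per kilobase, Slc6a12 made up 21.2% (14.3% to 29.1%) of the summed RNA of the carriers of GABA, betaine, taurine and creatine. Slc6a6 made up 53.4% of that sum and the creatine carrier Slc6a8 24.8%.

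**Figure D1:**
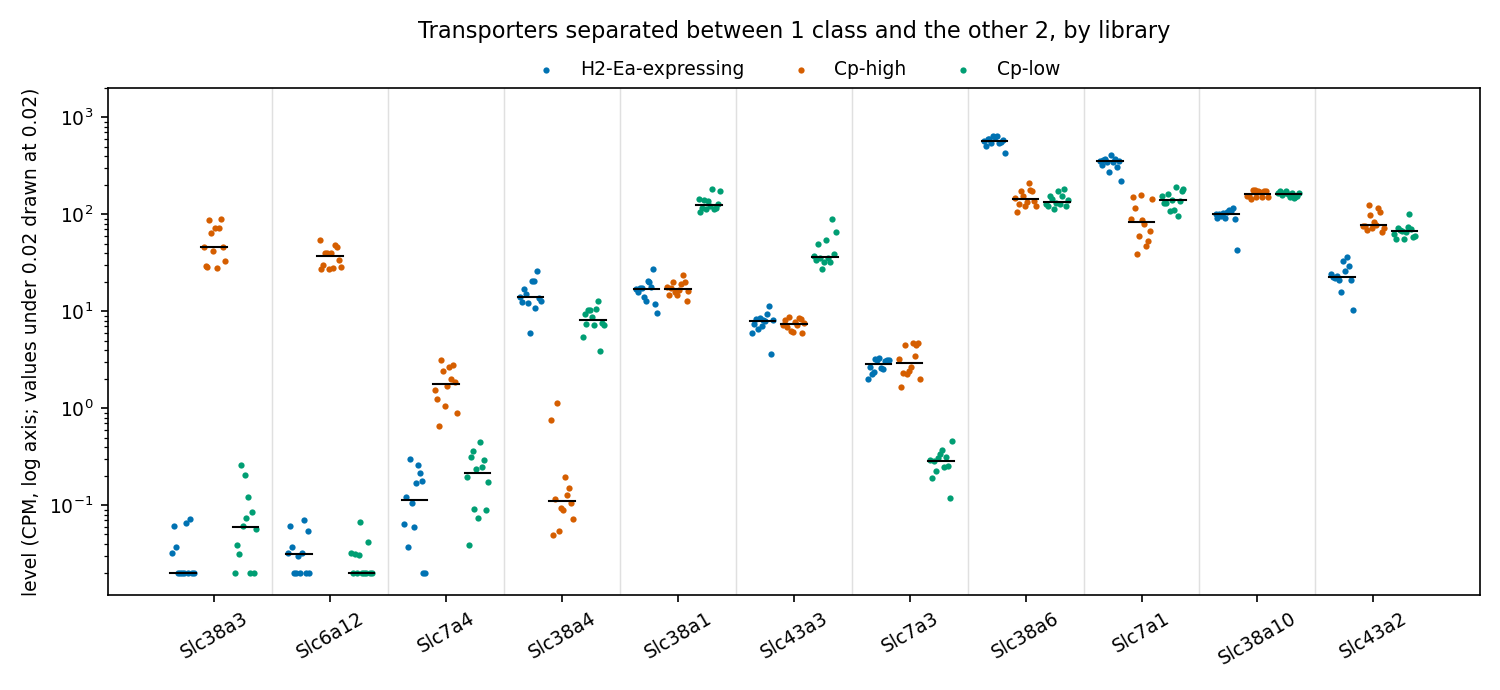
Levels of the 11 transporters that separate 1 class from the other 2 (CPM, log axis, values under 0.02 drawn at 0.02), with 1 point a library and a line at the median of each class of 12. Slc38a3 and Slc6a12 lie above 27 CPM in every Cp-high library and under 0.3 CPM in all others. The other 9 genes do not meet the rule for confined genes. Of these, Slc7a4, Slc38a4 and Slc7a3 are mostly under 1 CPM in at least 1 class, and the rest differ in level between classes in which they are present.

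A wider question was which transporters separate a class, meaning that its 12 libraries do not overlap the other 24. This held for 11 of the 36 members that pass the filter (30.6%), beside 31.4% of all 15217 genes, so transporters were not set apart by their number. In the same order of classes, higher and lower, the shares of all genes were 5.07% and 8.72% for H2-Ea-expressing, 8.12% and 5.18% for Cp-high, and 5.59% and 2.6% for Cp-low. Without PancO2 anti-PD-1 71, 14 members separated a class, beside 39.3% of genes, and the 3 added were Slc1a5 (H2-Ea-expressing, higher), Slc38a2 and Slc7a6 (both Cp-high, lower). The shares of all genes were then 7.5% and 10.6%, 9.26% and 6.92%, and 6.62% and 3.8%, in the same order.

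Among system A carriers, Slc38a1 and Slc38a4 shifted between classes while Slc38a2 remained the main one. Slc38a1 (chromosome 15, 96571418 to 96642913, minus strand) had lowest, median and highest levels of 105, 126 and 183 CPM in the Cp-low libraries. It stood at 9.51, 17.1 and 27.1 CPM in the H2-Ea-expressing libraries and at 12.9, 17.1 and 23.9 CPM in the Cp-high libraries, so the Cp-low median was 7.37-fold above each of the others. No Cp-low library overlapped the other 24, which overlapped each other. Slc38a4 (chromosome 15, 96994820 to 97055956, minus strand) was lower in the Cp-high class, with 0.0498, 0.111 and 1.13 CPM, than in the H2-Ea-expressing class, with 6.02, 13.996 and 26.2 CPM, or the Cp-low class, with 3.92, 8.21 and 12.8 CPM. A pair of Cp-high libraries lay well above the rest of their class for Slc38a4 and still below all 24 others.

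Slc38a2 ran from 285 through 331 to 443 CPM in the Cp-high libraries, from 442 through 875 to 945 CPM in the H2-Ea-expressing libraries and from 519.8 through 608 to 796 CPM in the Cp-low libraries. The highest Cp-high library reached the level of PancO2 anti-PD-1 71, the lowest of the H2-Ea-expressing class, and without that library no Cp-high library overlapped the others. Per kilobase, Slc38a2 made up 95.9%, 97.3% and 87.5% of the summed RNA of Slc38a1, Slc38a2 and Slc38a4 in the H2-Ea-expressing, Cp-high and Cp-low classes. Slc38a1 made up 0.943%, 2.51% and 9.72%. The sum itself had medians of 104, 38.6 and 77.9 CPM per kb, so the Cp-high libraries, which alone expressed Slc38a3, held the lowest level of system A RNA. Slc38a3 at 8.76 CPM per kb did not bring the Cp-high sum to the level of the other classes.

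Of the other Slc38 genes, Slc38a6 and Slc38a10 set the H2-Ea-expressing class apart in opposite directions. Slc38a6, a less studied member of the family (chromosome 12, 73286779 to 73354049, plus strand), had lowest, median and highest levels of 426, 574 and 638 CPM there. It stood at 106, 143 and 210 CPM in the Cp-high libraries and at 113, 135 and 184 CPM in the Cp-low libraries, which makes the median 4.03-fold and 4.24-fold higher. Slc38a10 (chromosome 11, 120103960 to 120151346, minus strand) was lower, with 43.3, 102 and 115 CPM against 145, 163 and 178 CPM in the Cp-high and 149, 163 and 175 CPM in the Cp-low class. Its exons share 367 bases with Gm11769 on the opposite strand, and since the use of strand in counting is not stated, their reads cannot be told apart. Slc38a7 (lysosomal glutamine export) and Slc38a9 (lysosomal arginine sensing) did not separate a class, with medians between 25.2 and 35.5 CPM and between 9.998 and 15.8 CPM.

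**Figure D2:**
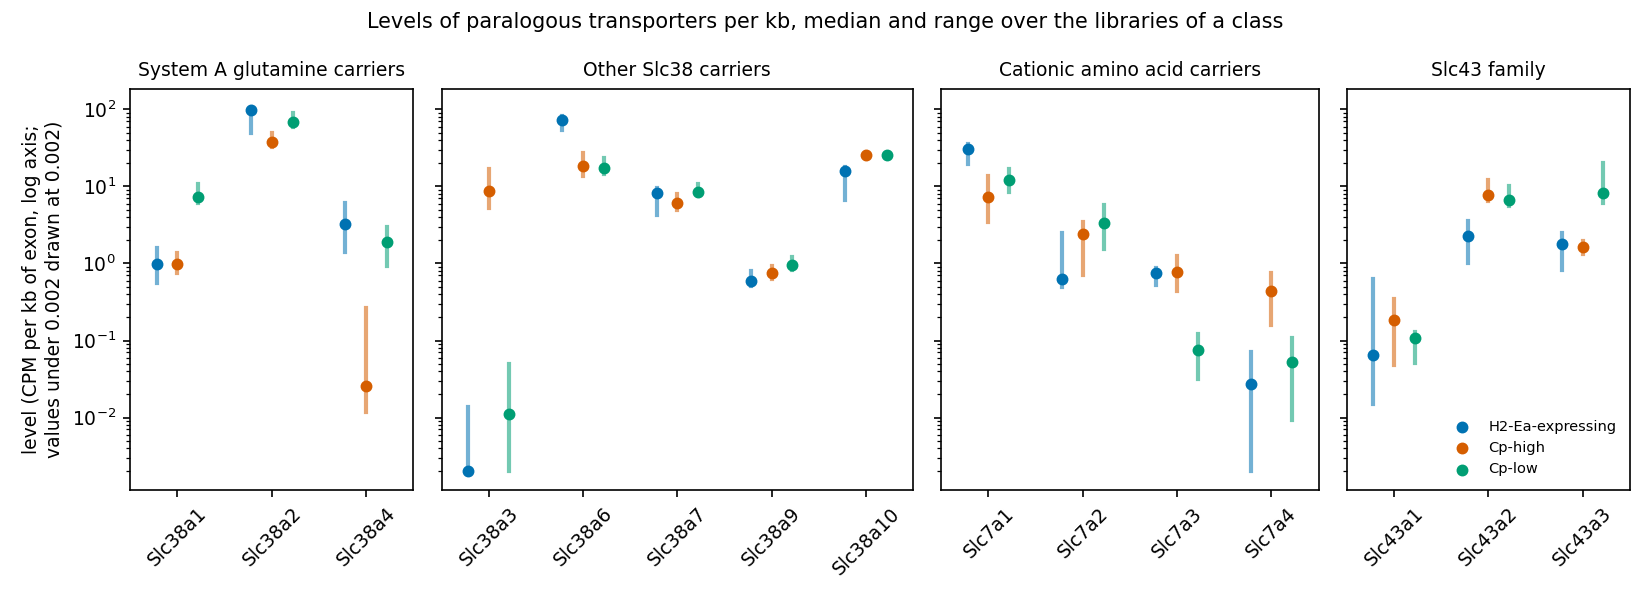
Levels of paralogous transporters in CPM per kilobase of exon (log axis, values under 0.002 drawn at 0.002) in 4 panels by role, with a point at the median and a bar over the range of the 12 libraries of each class. Slc38a2 is the highest system A carrier and Slc7a1 the highest cationic carrier in all 3 classes, while Slc38a1 and Slc43a3 are raised in the Cp-low class and Slc7a3 is lowest there.

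The cationic carriers differed both in amount and in make-up. Slc7a1, the broadly expressed arginine and lysine carrier (chromosome 5, 148327410 to 148399904, minus strand), ran from 223 through 353 to 409.5 CPM in the H2-Ea-expressing class. It ran from 39.3 through 83.3 to 157 CPM in the Cp-high class and from 97.2 through 140 to 193 CPM in the Cp-low class. The H2-Ea-expressing median was 4.23-fold and 2.52-fold higher, and its lowest library, PancO2 anti-PD-1 71, lay just 0.21 above the highest Cp-low library on the log2 scale, against 0.50 for the next lowest. Slc7a3 (X chromosome, 101079210 to 101086020, minus strand) stood at 2.01, 2.86 and 3.30 CPM in the H2-Ea-expressing class and 1.64, 2.95 and 4.76 CPM in the Cp-high class but at 0.118, 0.289 and 0.461 CPM, from 4 to 16 counts, in the Cp-low class.

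Slc7a2, which carries arginine in macrophages and liver among other cells, was not separated and had its lowest median in the H2-Ea-expressing class, where Slc7a1 was highest. Its levels were 4.53, 5.81 and 22.7 CPM in the H2-Ea-expressing class, with the highest in PancO2 anti-PD-1 71 and 13.5 CPM the highest without it, 6.41, 22.1 and 31.9 CPM in the Cp-high class and 13.9, 30.4 and 52.8 CPM in the Cp-low class. Per kilobase, Slc7a1 made up 94.7%, 67.7% and 77.8% of the cationic group in the H2-Ea-expressing, Cp-high and Cp-low classes, and Slc7a2 made up 2.06%, 18.9% and 19.7%. The summed level of the group was 31.9, 11.3 and 16.9 CPM per kb. Slc7a4, a relative with no established transport activity, was highest in the Cp-high class at 0.663, 1.80 and 3.12 CPM, against at most 0.299 and 0.450 CPM in the H2-Ea-expressing and Cp-low classes. Its exons share 554 bases with P2rx6 on the opposite strand, and those of Slc7a2 share 635 bases with an opposite-strand gene.

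In the Slc43 family, Slc43a2 and Slc43a3 each set a different class apart. Slc43a2, which lets branched-chain and other large amino acids pass (chromosome 11, 75531694 to 75577575, plus strand), was lowest in the H2-Ea-expressing class at 10.3, 22.9 and 36.1 CPM, against 65.2, 77.0 and 124 CPM in the Cp-high class and 55.9, 67.0 and 101 CPM in the Cp-low class. It shares 922 exon bases with Gm45606 on the opposite strand. Slc43a3, which carries purine nucleobases (chromosome 2, 84936579 to 84958509, plus strand), was highest in the Cp-low class at 27.5, 36.2 and 89.1 CPM, against 3.66, 8.002 and 11.3 CPM in the H2-Ea-expressing class and 5.94, 7.41 and 8.76 CPM in the Cp-high class. Its Cp-low median was 4.52-fold and 4.89-fold above those of the H2-Ea-expressing and Cp-high classes. Per kilobase it made up 56.9% of the family in the Cp-low class, 40.8% in the H2-Ea-expressing class and 16.7% in the Cp-high class.

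The heavy chain Slc3a2 and the light chains Slc7a5, Slc7a6 and Slc7a11 were present in all 36 libraries, with overlapping classes. Slc3a2 ran from 151 through 256 to 321 CPM in the H2-Ea-expressing class, from 154 through 182 to 300.3 CPM in the Cp-high class and from 129.8 through 193 to 216 CPM in the Cp-low class. Slc7a5 stood at 113, 252 and 313 CPM, at 101, 132 and 223 CPM and at 139, 236 and 300.3 CPM in the same order, and Slc7a11 at 34.8, 51.8 and 85.0 CPM, 6.59, 17.6 and 58.1 CPM, and 14.95, 23.8 and 37.8 CPM. Slc7a6, a light chain of system y+L, had medians of 59.5, 43.1 and 81.1 CPM. Without PancO2 anti-PD-1 71 it separated the Cp-high class as lower. The second heavy chain, Slc3a1, which pairs with Slc7a9 to take up cystine and basic amino acids, ran from 1.01 to 2.24 CPM in the H2-Ea-expressing class, up to 0.932 CPM in the Cp-high and up to 1.43 CPM in the Cp-low class, and shares 601 exon bases with an opposite-strand gene. Slc7a9 had 0.462 to 2.41 CPM in the H2-Ea-expressing class (up to 1.02 CPM without PancO2 anti-PD-1 71) and at most 0.0548 CPM, which is 1 count, elsewhere. It did not pass the filter on low levels.

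Several carriers moved within each class together with the amino acid response. A score, the mean log2 CPM of Asns, Chac1, Trib3, Ddit3 and Sesn2 (targets of ATF4 with roles in asparagine synthesis, glutathione breakdown and stress signalling), was set against 9 transporters in the 12 libraries of each class. With 11 further pairs of genes or marker lists this made 60 relations, and for 35 of them the permutation p of Pearson's r, after Benjamini-Hochberg adjustment over the 60, was under 0.05, with a positive r in 34. Summed over the 5 genes, the score genes had 455 to 721 CPM in the H2-Ea-expressing class, 80.5 to 456 CPM in the Cp-high class and 85.8 to 239 CPM in the Cp-low class.

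Slc7a1 and Slc3a2 followed the score in all 3 classes. For Slc7a1, r was 0.92 in the H2-Ea-expressing, 0.97 in the Cp-high and 0.93 in the Cp-low class (rho 0.86, 0.96 and 0.92; adjusted permutation p of r 0.00139, 0.0002 and 0.0002; n = 12 each). The raw permutation p of 1e-05 in the Cp-high and Cp-low classes is the smallest these permutations can give. Without the 2 libraries farthest from the median score, r was 0.80, 0.95 and 0.88. For Slc3a2, r was 0.92, 0.96 and 0.87 (rho 0.87, 0.94 and 0.80; adjusted permutation p 0.00139, 0.0002 and 0.00168) and 0.85, 0.94 and 0.83 without the farthest 2. Without PancO2 anti-PD-1 71, r in the H2-Ea-expressing class was 0.79 for Slc7a1 and 0.73 for Slc3a2 (adjusted permutation p 0.0121 and 0.0257, n = 11).

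Slc7a5, Slc1a5, Slc1a4, Slc38a2 and the glycine carrier Slc6a9 also rose with the score. Slc7a5 gave r of 0.89, 0.91 and 0.86 (rho 0.78, 0.84 and 0.82; adjusted permutation p 0.00611, 0.00075 and 0.00146), or 0.77, 0.85 and 0.77 without the farthest 2. Slc38a2 gave 0.91, 0.91 and 0.69 (rho 0.80, 0.80 and 0.85; adjusted permutation p 0.00447, 0.0012 and 0.0263), or 0.65, 0.88 and 0.58. Slc1a5 gave 0.87, 0.89 and 0.80 (rho 0.70, 0.81 and 0.66; adjusted permutation p 0.0151, 0.000686 and 0.00447), or 0.54, 0.79 and 0.51. Slc6a9 gave 0.88, 0.84 and 0.74 (rho 0.82, 0.77 and 0.82; adjusted permutation p 0.00635, 0.00407 and 0.0121), or 0.80, 0.69 and 0.75. Slc1a4 gave 0.88, 0.92 and 0.58 (rho 0.78, 0.93 and 0.69; adjusted permutation p 0.00635, 0.00036 and 0.0775), of which the last, in the Cp-low class, missed the threshold, or 0.80, 0.88 and 0.71. By rank, Slc1a4 passed in the Cp-low class too (adjusted permutation p of rho 0.0348). The exons of Slc6a9 share up to 1429 bases with opposite-strand genes. In the H2-Ea-expressing class r was smaller without PancO2 anti-PD-1 71, at 0.57 for Slc7a5, 0.44 for Slc1a5, 0.57 for Slc1a4, 0.68 for Slc38a2 and 0.57 for Slc6a9, and only that of Slc38a2 kept an adjusted permutation p under 0.05 (0.0416, n = 11). By rank the relations held for 4 of these 5 without that library, with rho from 0.71 to 0.76 and adjusted permutation p from 0.0248 to 0.0401, and Slc1a5 missed the threshold (rho 0.61; adjusted permutation p 0.0853).

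Slc7a11 rose with the score in 2 classes. Its r was 0.87 in the Cp-high and 0.85 in the Cp-low class (rho 0.84 and 0.90; adjusted permutation p 0.00195 and 0.00198), and 0.78 and 0.94 without the 2 farthest libraries. In the H2-Ea-expressing class r was -0.27 with PancO2 anti-PD-1 71, which held the highest Slc7a11 level of 85.0 CPM, and 0.62 without it (adjusted permutation p 0.0839; rho 0.70, adjusted permutation p 0.0407). Slc7a3 alone among the 9 fell with the score in a class, with r of -0.68 in the Cp-high class (rho -0.54; adjusted permutation p 0.0335) and -0.53 without the 2 farthest libraries, and by rank this relation did not pass (adjusted permutation p of rho 0.122). Its r in the H2-Ea-expressing and Cp-low classes was -0.42 and -0.38 (adjusted permutation p 0.233 and 0.286).

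**Figure D3:**
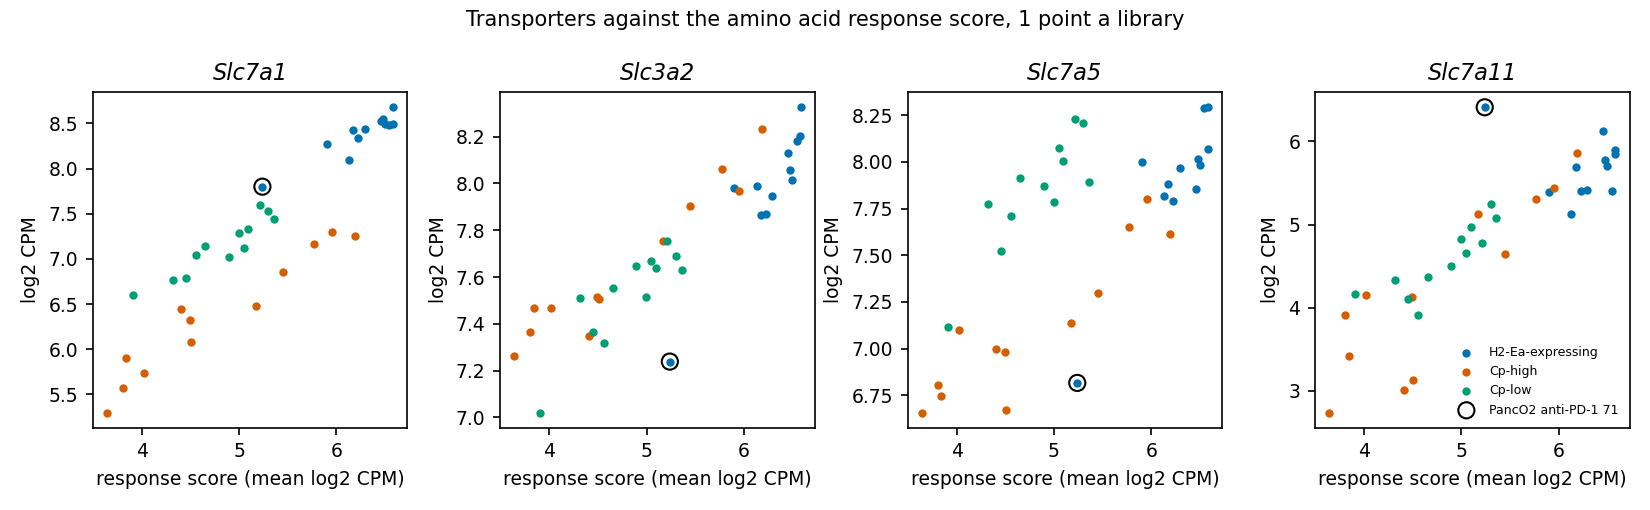
log2 CPM of 4 transporters against the amino acid response score (mean log2 CPM of 5 genes), with 1 point a library, coloured by class, and PancO2 anti-PD-1 71 circled. Slc7a1 rises with the score within each class along separate lines, and the circled library lies apart from the other H2-Ea-expressing libraries, high for Slc7a11 and low for Slc3a2 and Slc7a5.

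Such relations are common in some classes. Of 15212 other genes, 20.0% reached an r of 0.7 with the score in the H2-Ea-expressing class (1.04% without PancO2 anti-PD-1 71), 8.1% in the Cp-high class and 0.868% in the Cp-low class. In all 3 classes at once it was 51 genes (0.335%), among them Slc1a5, Slc3a2, Slc6a9, Slc7a1 and Slc7a5 of the 36 members. Without PancO2 anti-PD-1 71 it was 18 genes (0.118%), among them Slc3a2 and Slc7a1.

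The partner chains were related to each other as well. Slc7a5 rose with Slc3a2 in the H2-Ea-expressing, Cp-high and Cp-low classes (r 0.95, 0.89 and 0.95; rho 0.79, 0.80 and 0.94; adjusted permutation p 0.00139, 0.0012 and 0.0003), with 0.66, 0.84 and 0.94 without the 2 libraries farthest in Slc3a2. Slc7a11 rose with Slc3a2 in the Cp-high and Cp-low classes (r 0.92 and 0.72; rho 0.90 and 0.73; adjusted permutation p 0.0004 and 0.0116), and its r in the H2-Ea-expressing class was -0.35, or 0.51 without PancO2 anti-PD-1 71. For Slc7a6 and Slc7a7, light chains of system y+L, no relation to Slc3a2 passed in any class, with r from -0.44 to 0.76, the highest being Slc7a6 in the H2-Ea-expressing class, which fell to -0.35 without PancO2 anti-PD-1 71. Slc7a7 instead followed the macrophage markers, taken as their mean log2 CPM, in the H2-Ea-expressing and Cp-high classes (r 0.79 and 0.77, rho 0.83 and 0.66, adjusted permutation p 0.00635 and 0.00925). Without the 2 libraries farthest in the markers, r was 0.77 and 0.57. In the Cp-low class r of 0.53 missed the threshold (rho 0.59, adjusted permutation p 0.124). Slc7a8, a light chain for neutral amino acids, rose with Slc3a2 in the Cp-high class (r 0.78; rho 0.72; adjusted permutation p 0.0077), while its r of 0.73 in the H2-Ea-expressing class (rho 0.50; adjusted permutation p 0.0356) was 0.18 without the 2 farthest libraries and so rests on them. Against the macrophage markers Slc7a8 passed in the H2-Ea-expressing class (r 0.62; rho 0.58; adjusted permutation p 0.0483) but not by rank (adjusted permutation p 0.0895), and r was 0.35 without the 2 farthest libraries, while without PancO2 anti-PD-1 71 the adjusted permutation p was 0.0784. Slc7a2 and the glutamate carrier Slc1a3 did not pass against the macrophage markers in any class, with r from -0.45 to 0.22. Slc7a10 and Slc36a2 had too few counts (medians of 0 to 8) for their relations to adipocyte markers to be read. Slc7a10 in the Cp-high class and Slc36a2 in the Cp-low class (adjusted permutation p 0.0456 and 0.040) are nonetheless counted among the 35 that passed.

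Promoter windows of members were searched for the amino acid response element, which ATF4 is known to bind. RefSeq start sites on GRCm38.p6 gave windows of 300 bases (250 before and 50 after the start) for 42 of the 60 members. TGATGNAA, taken for the element, was searched for on both strands. It is in 3.97% of 32851 windows of all genes and in 5 of 63 windows of members. It occurred in windows of Slc7a11, Slc1a4, Slc7a7 and Slc6a21, and Slc7a11 had it 2 times, with first bases 66 and 47 bases before the start. Slc7a1, Slc3a2 and Slc7a5, which rose with the score in each class, were not among the genes with a match. A match is a description of these letters only, and a part of ATF4 in these levels was not tested. The windows of Slc7a11 (chr3:50443564-50443863, minus strand) and Slc1a4 (chr11:20332664-20332963, minus strand) are printed 5′ to 3′ with the matches in capitals, because both genes belong to the 9 set against the score.
Slc7a11: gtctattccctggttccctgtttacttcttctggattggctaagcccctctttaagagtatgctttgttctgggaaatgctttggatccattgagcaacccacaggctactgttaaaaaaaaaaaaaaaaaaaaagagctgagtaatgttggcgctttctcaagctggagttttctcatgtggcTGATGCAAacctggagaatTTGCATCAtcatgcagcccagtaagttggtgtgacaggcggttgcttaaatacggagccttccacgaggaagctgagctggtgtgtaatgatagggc
Slc1a4: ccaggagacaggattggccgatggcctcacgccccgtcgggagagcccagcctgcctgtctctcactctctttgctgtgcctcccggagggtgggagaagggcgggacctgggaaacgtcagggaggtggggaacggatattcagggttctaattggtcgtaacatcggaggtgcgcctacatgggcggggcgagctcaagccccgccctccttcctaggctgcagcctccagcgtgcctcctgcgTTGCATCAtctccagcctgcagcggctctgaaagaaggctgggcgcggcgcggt

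Labelled groups, unlike the classes, were compared by tests, and no transporter passed between them. Since H2-Ea-ps went against the labelled strain in 16 of 36 libraries, these contrasts compare labels and may not compare the models or treatments that the labels name. Between labelled models, with the 12 IgG libraries, 0 of 38 members tested passed an adjusted p of 0.05 in any of 3 contrasts (edgeR quasi-likelihood test, Benjamini-Hochberg over 16510 genes), as did 0.0% of all genes. Of the 114 tests of members, 0 had an unadjusted p under 0.05, beside 0.553% of tests over all genes. Between each antibody and IgG within a labelled model, in 6 contrasts with 39 to 42 members and 16285 to 16410 genes, 0 members and 0.0% of genes were called, and 6 of 244 tests of members had an unadjusted p under 0.05 (2.46%, beside 1.24% over all genes). The DESeq2 Wald test also called 0 members, while over all genes it called 2 of 49530 tests between models and 4 of 98036 between treatments. Of members, 1 and 6 tests had an unadjusted p under 0.05 (0.877% and 2.46%, beside 0.864% and 1.42% over all genes).

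The smallest unadjusted p of a member was that of Slc38a1 in PancO2, which with anti-PD-1 had a log2 fold change of -2.44 against IgG (SE 0.86, edgeR adjusted p 0.807). PancO2 IgG held 2 Cp-low libraries and PancO2 anti-PD-1 held 0, and Slc38a1 is, with Slc43a3, a member that was higher in that class. The part of this make-up in the difference was not tested, since the classes come from expression in these same libraries. When all 36 libraries were fitted with a term for the class, the same difference was -0.40 (SE 0.15, edgeR adjusted p 0.227). In that fit 0 members were called in the 9 contrasts, with 5 of 138 and 14 of 276 tests of members at an unadjusted p under 0.05 (3.62% and 5.07%, beside 3.38% and 4.38% over all genes). The largest standard errors fell to the confined pair, where 4 libraries of a group can hold 1 or 2 that express the gene. Slc38a3 differed between anti-CTLA4 and IgG in PancO2 by 2.50 (SE 2.57, adjusted p 1) without the term and by 1.51 (SE 0.48, adjusted p 0.645) with it, on the log2 scale in edgeR.

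**Figure D4:**
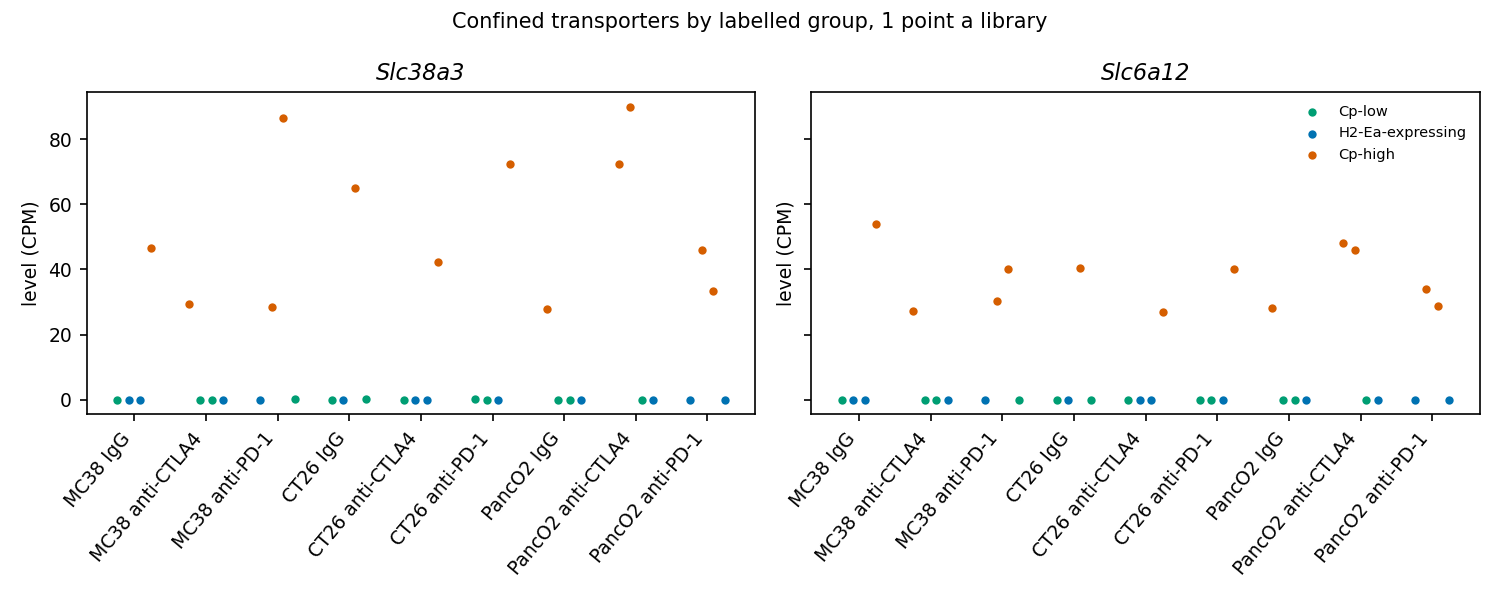
Levels of Slc38a3 and Slc6a12 (CPM, linear axis) in the 9 labelled groups, with 1 point for each of 4 libraries, coloured by class. Each group holds 1 or 2 Cp-high libraries above 27 CPM and 2 or 3 libraries near 0, so the 4 libraries under a label do not share the presence of either gene.

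By the rule for confined genes, the presence of both genes had to follow the class in every labelled group, so the values are a description. In MC38 IgG, for example, Slc38a3 had 0, 0.0324, 0.0606 and 46.6 CPM, and Slc6a12 had 0.0324, 0.0325, 0.0606 and 54.1 CPM. In PancO2 anti-PD-1, Slc38a3 had 0, 0, 33.3 and 45.9 CPM and Slc6a12 had 0, 0.0539, 28.7 and 33.99 CPM. The same libraries were high for both genes in each group, which the rule fixes as well.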

How the data were processed

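RNA of 36 tumours was sequenced from poly-A selected libraries, with the TruSeq kit V2 per the labels. The paper names a stranded KAPA kit in a methods section on unique mutations, and does not say whether that section covers these tumours. The authors mapped reads to GRCm38/mm10 with TopHat and Bowtie2 and deposited the raw counts that HTSeq assigned to Ensembl genes. Whether counting used the strand, and the annotation release, are not given in the sources used here. Lines that name no gene (44.8% to 86.5% of listed reads per library) were left out of totals and tests. Reads without a unique position are not counted per gene, so close copies may be undercounted. CPM were computed over these totals (7883106 to 41751023 counts) and per kilobase of merged exons of GENCODE M21. The limit for a count of 0, 3 counts, covers counting error only.

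The members and lists were chosen with earlier results of these data known. Classes were described with no test. The values of 1 member and 1 listed enzyme are not reported here. Labelled groups were tested on all genes past filterByExpr with the quasi-likelihood test of edgeR 4.0.16 (TMM, R 4.3.3), with Benjamini-Hochberg adjustment, two-sided. P-values measure the spread between these libraries, which may be in part technical. For relations, values were log2 CPM (prior count 2), with 100000 two-sided permutations (scipy 1.17.1), within classes, adjusted over 60 relations. Transporters named were those confined or separated, the family leaders and those in the relations, and others named were chosen after their values were seen. Alternatives were other scalings, filters, limits, DESeq2 1.42.0, a class term, another prior count, Spearman's rho and leaving out each library. The class term without PancO2 anti-PD-1 71 was added after the data were seen. Steps were tested on simulated data.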

Additional observations from a re-analysis of the deposited data

Results flagged for a closer look

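For the 2 confined transporters, the 4 libraries of each labelled group were screened for 1 library far from the other 3, with the gap divided by the range of the group. Of 18 sets, 12 held such a library. Both genes were chosen for being present in the Cp-high libraries and absent elsewhere, so a labelled group with a single Cp-high library had to be picked out, the count is a description, and the rate by chance of about 1 in 20 sets is no measure of it.

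Slc38a3 stood at 46.6 CPM in MC38 IgG 7, 29.5 CPM in MC38 anti-CTLA4 8, 65.0 CPM in CT26 IgG 28, 42.3 CPM in CT26 anti-CTLA4 36, 72.3 CPM in CT26 anti-PD-1 46 and 27.9 CPM in PancO2 IgG 48. Slc6a12 stood at 54.1, 27.2, 40.3, 27.1, 40.2 and 28.3 CPM in the same 6 libraries. The other 3 libraries of each of these groups had at most 0.204 CPM of Slc38a3 and 0.0711 CPM of Slc6a12. In MC38 anti-PD-1, PancO2 anti-CTLA4 and PancO2 anti-PD-1, 2 of 4 libraries expressed the genes.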

How the results depend on the processing

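The count of confined transporters was 2 under every alternative run, which were limits of 0.5 CPM, a 5-fold limit, TMM and DESeq2 scaling and leaving out each library. The count of separated transporters was 11 to 14 when each library was left out, with 14 reached without PancO2 anti-PD-1 71, and 12 with TMM or DESeq2 scaling (Slc38a2 added) or with no filter (Slc7a9 added). Scaling moved the class medians of all genes by at most 0.055 on the log2 scale. Members called between labelled models and between treatments were 0 in every fit, with a range of 0 to 0 when each library was left out. Of 60 relations, 35 passed, 32 with a prior count of 0.5, 32 by Spearman's rho and 28 without PancO2 anti-PD-1 71, where those in the H2-Ea-expressing class went from 11 to 5. By Spearman's rho that class held 9 with and 9 without the library. Without it, r changed sign there for Slc7a11 with the score and with Slc3a2, for Slc7a6 and Slc7a7 with Slc3a2 and for Slc1a3 with the macrophage markers, none of which passed by r with or without it. No count or gap between classes changed direction. The log2 gap of Slc7a1 to the other classes went from 0.21 to 0.50 without that library, and that of Slc38a6 from 1.02 to at most 1.31 under DESeq2 scaling. No paired analysis was possible because each number in the labels belongs to 1 library, so the groups compared share none. Genes at few counts, such as Slc7a3 in the Cp-low class and Slc7a9, carry the largest counting error.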

Other observations

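Enzymes that use the amino acids carried by these transporters also differed between classes, described here with no test. Of 26 enzymes listed, 24 passed the filter on low levels and 7 of these separated a class, a share near the 31.4% of all genes. Arg1, which splits arginine into ornithine and urea, had 282 to 568 CPM in the Cp-low class against 55.9 to 153 CPM in the H2-Ea-expressing class and 14.9 to 135 CPM in the Cp-high class. Ass1, which rebuilds arginine from citrulline, was lower in the H2-Ea-expressing class at 3.36 to 11.3 CPM, against 32.4 to 107 CPM and 16.7 to 41.3 CPM in the Cp-high and Cp-low classes. Odc1, which turns ornithine into putrescine, was higher there, at 331 to 456 CPM against 119 to 178 and 121 to 322 CPM. Bcat1, which transaminates branched-chain amino acids, had 0.422 to 1.85 CPM in the Cp-high class against 66.7 to 112 CPM and 66.1 to 153 CPM in the H2-Ea-expressing and Cp-low classes. Gclc, the first enzyme of glutathione synthesis, was lower in the Cp-low class at 23.8 to 29.3 CPM, against 55.001 to 85.1 CPM in the H2-Ea-expressing and 43.4 to 90.2 CPM in the Cp-high class. The glutamine synthetase Glul separated no class.

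Of 18 amino acid and peptide transporters outside the 7 families that are in the table, 15 passed the filter and 8 of these separated a class, beside 31.4% of all genes. Slc15a2, a carrier of small peptides, had 5.62 to 22.4 CPM in the Cp-high class, 0.547 to 3.29 CPM in the Cp-low class and 0 to 0.381 CPM in the H2-Ea-expressing class. The mitochondrial aspartate and glutamate carriers ran in opposite directions, as Slc25a12 was highest in the Cp-high class at 62.3 to 78.7 CPM and Slc25a13 lowest there at 17.5 to 25.005 CPM. In the H2-Ea-expressing and Cp-low classes Slc25a12 had 38.3 to 58.5 and 35.7 to 42.2 CPM, and Slc25a13 had 40.3 to 64.6 and 30.1 to 43.3 CPM.

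Within the Cp-high class, the lowest r of a member with the amino acid response score were those of Slc7a4, Slc38a9, Slc38a6 and Slc38a3. Over the 12 libraries they stood at -0.84, -0.84, -0.80 and -0.77. These are the lowest of 36 members, given as descriptions since none was among the 60 relations tested. The share of all genes with so low an r was not counted. For Slc7a4, Slc38a9 and Slc38a6, r was 0.12, -0.28 and -0.21 in the Cp-low class and 0.31, 0.17 and 0.74 in the H2-Ea-expressing class, or -0.22, -0.03 and 0.23 there without PancO2 anti-PD-1 71. Outside the Cp-high class Slc38a3 had at most 8 counts a library, too few for an r to be read.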
